A study of Bos taurus with 111 samples.

Results

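NFKBIA (ENSBTAG00000016683), 1 of the 24616 Ensembl genes counted in these files, encodes IkappaB alpha, an inhibitor of the transcription factor NF-kappaB. It was followed across 104 retained muscle libraries, with 7 others left out, in groups set by breed, diet and residual feed intake (RFI), and within the steers sampled in more than 1 phase. The gene was chosen by its reads in Charolais steers of the first high concentrate phase, where L-RFI exceeded H-RFI, so that difference is described below without a test. Contrasts between phases or breeds that contain those same libraries are likewise given without a test.

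IkappaB alpha binds NF-kappaB dimers in the cytoplasm and masks the signal that sends them to the nucleus. When a cytokine or microbial product activates the IkappaB kinases, the inhibitor is phosphorylated, ubiquitinated and degraded, and the freed dimers switch on inflammatory genes. NFKBIA is itself a target of NF-kappaB, which makes it a negative feedback gene, and glucocorticoids can also raise its transcript. In skeletal muscle the pathway is known for its part in inflammation and in the loss of muscle protein.

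Biopsies of M. longissimus thoracis et lumborum were taken from Charolais (CH) and Holstein Friesian (HF) steers. Each breed was fed a high concentrate diet (H1), then zero-grazed grass (ZG), then the high concentrate diet again (H2), and each feeding test lasted 70 days. Steers were aged 283 days (CH) and 306 days (HF) on average at the start, and mean starting weights in H1, ZG and H2 were 395, 519 and 675 kg for CH and 294, 441 and 611 kg for HF. Within each breed and phase, steers that ate less than predicted for their size and gain (L-RFI) were set against those that ate more (H-RFI), and the class was assigned anew in each phase. The 12 groups held 7 to 11 retained libraries from 77 steers in all. The phases came in a fixed order, so diet cannot be told apart from age and weight in contrasts with ZG. H1 and H2 shared the diet, and between them age, weight and time cannot be told apart.

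The retained libraries held 2201765 to 52552057 gene counts (median 15852125.5). NFKBIA itself had 16 to 2373 counts per library, with a median of 240, where counting error alone gives a coefficient of variation of 6.45%. At the median depth a count of 0 would allow up to 0.189 counts per 1000000 (CPM), so the gene was well above the limit of detection in every retained library. Of its counts on either strand, 99.8% lay on the strand that the kit reads. Levels are given below as CPM scaled with TMM factors, which correct each library total for the share taken by a few abundant genes. Bulk muscle was sequenced, and a change in the cells present cannot be told apart from a change in RNA per cell. Of the muscle markers with a name, CSRP3 averaged 224 normalised CPM and MYH4 averaged 10.2, while the hemoglobin gene HBD was at or near 0.

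Across all 104 libraries NFKBIA averaged 15.6 ± 6.76 normalised CPM (SD) and ranged from 4.61 to 41.4. The highest group mean was that of CH-H1 L-RFI steers and the lowest that of HF-H1 L-RFI steers, so both ends of the order belonged to efficient steers on the same diet. Every pair of neighbours in the order of the 12 means differed by less than their pooled SD, and their ranges overlapped.

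**Figure D1:**
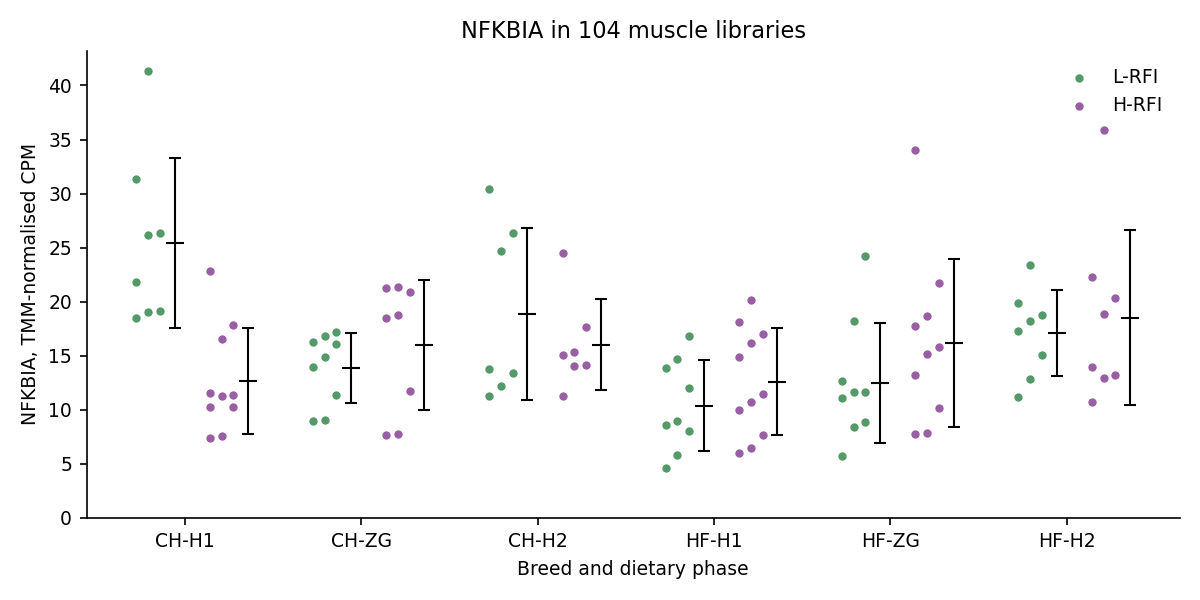
NFKBIA in TMM-normalised CPM for each of the 104 retained libraries (points), by breed and dietary phase on the horizontal axis and RFI class by colour; black bars give the mean ± SD of each group. The CH-H1 L-RFI libraries lie at 18.5 to 41.4 CPM, while the CH-H1 H-RFI libraries lie at 7.41 to 22.8 CPM.

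In CH-H1, the comparison that chose the gene, the 8 L-RFI steers had 18.5, 19.0, 19.1, 21.8, 26.1, 26.3, 31.4 and 41.4 normalised CPM. The 10 H-RFI steers had 7.41, 7.60, 10.2, 10.2, 11.2, 11.4, 11.5, 16.5, 17.8 and 22.8 CPM. The groups overlapped through a single H-RFI animal: 9 of the 10 lay below every L-RFI steer, and 4 of the 8 L-RFI steers lay above every H-RFI steer. The means were 25.4 ± 7.88 (SD, n = 8) and 12.7 ± 4.88 (SD, n = 10), and edgeR put the difference at 0.99 on the log2 scale (SE 0.21). The unweighted difference of mean log2 values was 1.04, and it stayed between 0.93 and 1.14 when any 1 steer was left out. It was much the same without TMM factors, at 1.01 (SE 0.25). Beside this difference, L-RFI libraries were shallower, with a median of 13500600 gene counts against 26941900. Leukocyte markers summed to 9.91 to 52.6 CPM (median 15.9) in L-RFI and 11.2 to 36.2 CPM (median 24.1) in H-RFI steers. Adipocyte markers summed to 1.19 to 12.5 CPM (median 2.90) and 1.76 to 16 CPM (median 7.49), respectively. The part of depth or cell makeup in the NFKBIA difference was not tested.

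The other 5 comparisons of RFI class asked whether NFKBIA differed in the same way in the other breed or on the other diets. No difference between L-RFI and H-RFI steers passed the threshold in any of them (edgeR's quasi-likelihood test, Benjamini-Hochberg adjusted p under 0.1 with a fold change above 1.5). In CH-ZG, L-RFI steers had 8.97 to 17.2 CPM (median 14.8, n = 9) and H-RFI steers 7.67 to 21.4 CPM (median 18.6, n = 8). Here 5 H-RFI steers lay above every L-RFI steer and 2 lay below all of them. In CH-H2, the 7 L-RFI steers had 11.2, 12.2, 13.4, 13.7, 24.7, 26.3 and 30.4 CPM and the 7 H-RFI steers 11.3, 14.0, 14.1, 15.1, 15.4, 17.7 and 24.5 CPM. The L-RFI steers thus split into 4 low and 3 high values, and the H-RFI range lay within theirs. The log2 difference, L-RFI minus H-RFI, was -0.22 (SE 0.23, edgeR adjusted p = 1.000) in CH-ZG and 0.24 (SE 0.26, edgeR adjusted p = 1.000) in CH-H2.

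In HF steers the L-RFI mean was the lower of the pair in each phase, with wide overlap. In HF-H1, L-RFI steers had 4.61 to 16.8 CPM (median 9.0, n = 9) and H-RFI steers 5.98 to 20.2 CPM (median 11.5, n = 11). In HF-ZG the ranges were 5.71 to 24.2 CPM (median 11.6, n = 9) and 7.74 to 34.0 CPM (median 15.5, n = 10). In HF-H2 they were 11.1 to 23.4 CPM (median 17.7, n = 8) and 10.7 to 35.9 CPM (median 16.4, n = 8), so the L-RFI median was the higher there although the mean was not. The log2 differences were -0.24 (SE 0.25), -0.37 (SE 0.28) and -0.095 (SE 0.24). Their edgeR adjusted p-values were 1.000, 0.429 and 1.000. The HF-H2 difference turned to 0.075 without steer 1639, the H-RFI animal with 35.9 CPM. Leaving out 1 steer at a time moved HF-H1 between -0.38 and -0.16 and HF-ZG between -0.55 and -0.18, and in CH it moved CH-ZG between -0.32 and -0.15 and CH-H2 between 0.094 and 0.36. With plain library totals the differences were -0.48 in HF-H1, -0.59 in HF-ZG, -0.26 in HF-H2 and -0.46 in CH-ZG, none of them called. These p-values do not show that the classes had equal levels, given SEs of 0.24 to 0.28.

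**Figure D2:**
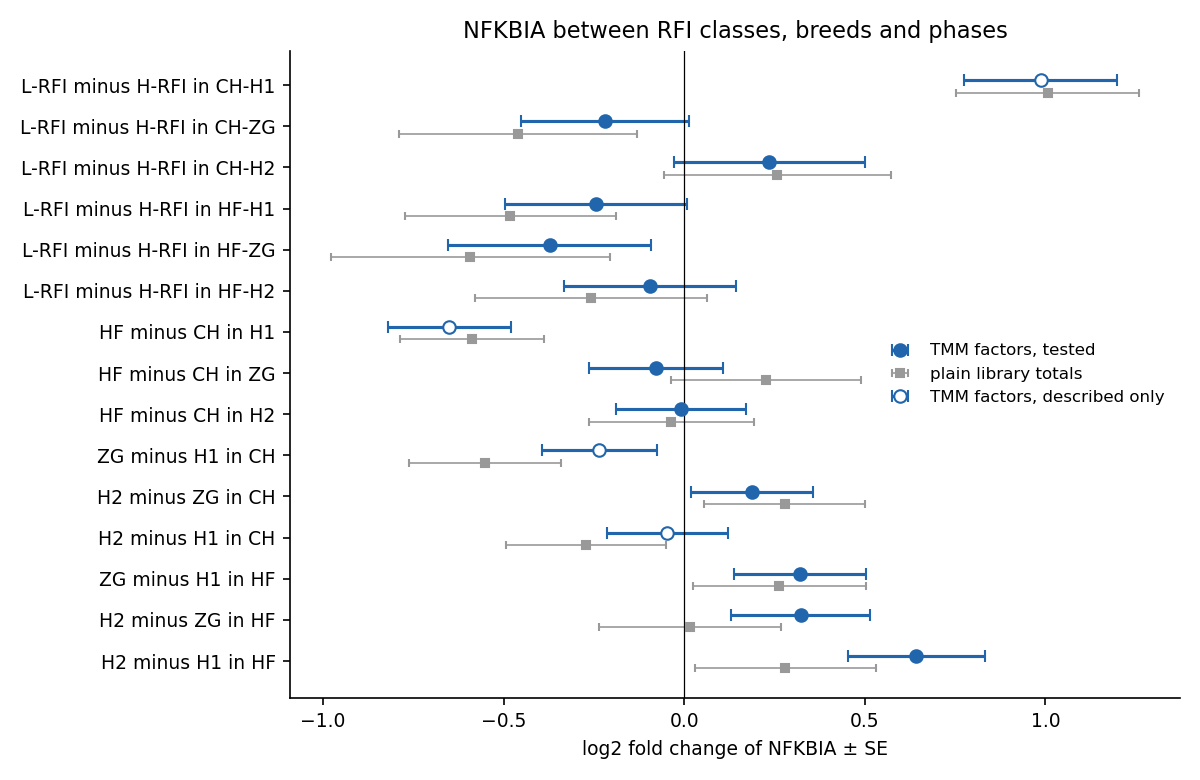
Log2 fold change of NFKBIA with its SE (horizontal axis) for each contrast of RFI class, breed or phase (rows); circles use TMM factors, filled where tested and open where described only, and grey squares use plain library totals. CH-H1 stands at 0.99, whereas the other RFI contrasts lie between -0.37 and 0.24 with TMM factors and between -0.59 and 0.26 with plain library totals.

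The share of all genes called by edgeR's quasi-likelihood test was 0% in each of CH-ZG, CH-H2, HF-H1, HF-ZG and HF-H2, so the lack of a call for NFKBIA was shared by every gene tested. The numbers of genes with an unadjusted p under 0.05 were 79, 89, 317, 1228 and 72, in that order. The edgeR exact test called 1 gene in CH-H2 and none in the others, while DESeq2 called 2 in CH-H2 and a single gene in HF-ZG. In a single model of all retained libraries, the mean L-RFI minus H-RFI difference over these 5 comparisons was -0.15 on the log2 scale (SE 0.12, unadjusted p = 0.199, edgeR adjusted p = 0.591). With plain library totals it was -0.31 (SE 0.15, unadjusted p = 0.0449, edgeR adjusted p = 0.388), where the median of all genes was -0.16. With TMM factors that model called 0% of 10291 genes, with 607 at an unadjusted p under 0.05, and DESeq2 called 0 as well. The test of whether the NFKBIA difference varied among the 5 comparisons did not pass (edgeR F = 0.706, unadjusted p = 0.590, adjusted p = 0.998). In CH-H1, given as background only, the quasi-likelihood fit also called 0 of 10596 genes, with 216 at an unadjusted p under 0.05. The edgeR exact test and DESeq2 each called 2 genes there.

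Between breeds, no NFKBIA difference passed on grass or in the second concentrate phase. CH averaged 14.9 ± 4.71 CPM (SD, n = 17) and HF 14.4 ± 6.91 (SD, n = 19) in ZG, and in H2 they averaged 17.4 ± 6.29 (SD, n = 14) and 17.8 ± 6.21 (SD, n = 16). HF minus CH was -0.078 on the log2 scale in ZG (SE 0.19, edgeR adjusted p = 0.843), where 0.783% of 10211 genes were called. In H2 it was -0.0095 (SE 0.18, edgeR adjusted p = 1.000), where 1 gene of 9966, or 0.01%, was called. Neither sign was stable across scalings: the ZG difference was 0.23 with plain library totals, and the H2 difference was 0.011 with DESeq2. In H1 the breeds stood further apart, at 18.4 ± 8.99 CPM (SD, n = 18) in CH and 11.6 ± 4.62 (SD, n = 20) in HF. This contrast of -0.65 (SE 0.17) contains the libraries that chose the gene and was not tested. By class, the CH-H1 H-RFI mean of 12.7 CPM was near the HF-H1 H-RFI mean of 12.6 CPM, whereas the L-RFI means were 25.4 and 10.4 CPM.

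Over the feeding sequence NFKBIA rose in HF steers. HF libraries had 4.61 to 20.2 CPM in H1 (mean 11.6 ± 4.62, n = 20), 5.71 to 34.0 CPM in ZG (mean 14.4 ± 6.91, n = 19) and 10.7 to 35.9 CPM in H2 (mean 17.8 ± 6.21, n = 16; all SD). Of the 16 H2 libraries, 15 lay above the H1 median and 4 above every H1 library, and 10 of the 20 H1 libraries lay below every H2 library. Both RFI classes were higher in H2, L-RFI at 17.1 against 10.4 CPM and H-RFI at 18.5 against 12.6 CPM. H2 minus H1 was 0.64 on the log2 scale (SE 0.19, edgeR adjusted p = 0.0210), and NFKBIA was among the 3.82% of 10478 genes called higher in H2, while 5.97% were called lower. Neither of the 2 steps passed by itself. ZG minus H1 was 0.32 (SE 0.18, edgeR adjusted p = 0.717), with 0.372% of genes called higher and 0.115% lower. H2 minus ZG was 0.32 (SE 0.19, edgeR adjusted p = 0.341), with 0.716% called higher and 2.84% lower, but only 0.017 with plain library totals (edgeR adjusted p = 0.974), where the first step was 0.26.

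The size of this rise depended on how the libraries were scaled. TMM factors had a median of 1.26 in HF-H1 and 0.918 in HF-H2. With plain library totals, an alternative added after the values were seen, H2 minus H1 was 0.28 (SE 0.25, edgeR adjusted p = 0.411) and the call was lost. In that scaling the median of all genes fell by 0.34, so NFKBIA stood 0.62 above it. Without the HF-H2 library of steer 1639, the rise was 0.54 (edgeR adjusted p = 0.0415), just under the fold threshold. It ranged from 0.54 to 0.70 over the 36 fits that each left out 1 library. Leukocyte markers summed to 195 CPM in that library, against 7.06 to 157 CPM in the other HF-H2 H-RFI libraries, and their part in its NFKBIA level was not tested. With the steer as a replicate block in limma voom, the rise was 0.72 (adjusted p = 0.00240), and without the block 0.67 (adjusted p = 0.0151).

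In CH steers NFKBIA averaged 18.4 CPM in H1, 14.9 CPM in ZG and 17.4 CPM in H2. H2 minus ZG was 0.19 (SE 0.17, edgeR adjusted p = 0.843), where 0.0595% of 10087 genes were called higher and 0.862% lower. ZG minus H1 was -0.23 (SE 0.16) and H2 minus H1 was -0.047 (SE 0.17), both untested because H1 holds the libraries that chose the gene. Whether the breeds differed in their change over the phases was not tested, for the same reason.

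Repeated biopsies of the same animals gave a view of NFKBIA within steers. Of the 77 steers, 23 had 2 retained libraries and 2 had 3, which made 29 pairs of phases. From H1 to H2, all 5 HF steers sampled in both phases were higher in H2. Steer 1811 went from 6.50 to 18.8 CPM, steer 2220 from 5.81 to 15.1, steer 2071 from 11.5 to 20.3, steer 2095 from 13.9 to 18.2, and steer 1920 from 18.1 to 18.8. The mean change was 0.83 ± 0.63 (SD, n = 5) on the log2 scale, and the exact two-sided sign-flip permutation test gave p = 0.0625, the smallest that 5 pairs allow (adjusted p = 0.312 over 5 tests). With plain CPM the mean change in these steers was 0.010 and 3 of the 5 were higher, so the direction in every steer held only under TMM scaling.

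The other within-steer changes were mixed. From H1 to ZG, 3 of 6 HF steers were higher and 3 lower (mean log2 change -0.025, exact permutation p = 0.938, and -0.37 with plain CPM). From ZG to H2, both HF steers sampled were higher, steer 1639 going from 13.2 to 35.9 CPM and steer 5612 from 11.6 to 19.9 (mean 1.11, exact permutation p = 0.5, the smallest possible with a single pair of steers). From ZG to H2 in CH, 4 of 5 steers were higher (mean 0.48, exact permutation p = 0.125). Among CH steers with an H1 library, described only, the mean change was -0.13 to ZG (n = 5) and 0.10 to H2 (n = 6). There the largest fall was in steer 322, from 26.3 to 11.2 CPM while classed L-RFI in both phases, and the largest rise in steer 1320, from 7.60 to 17.7 CPM while classed H-RFI in both. These 2 steers, named for their change after the values were seen, crossed over between the phases.

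**Figure D3:**
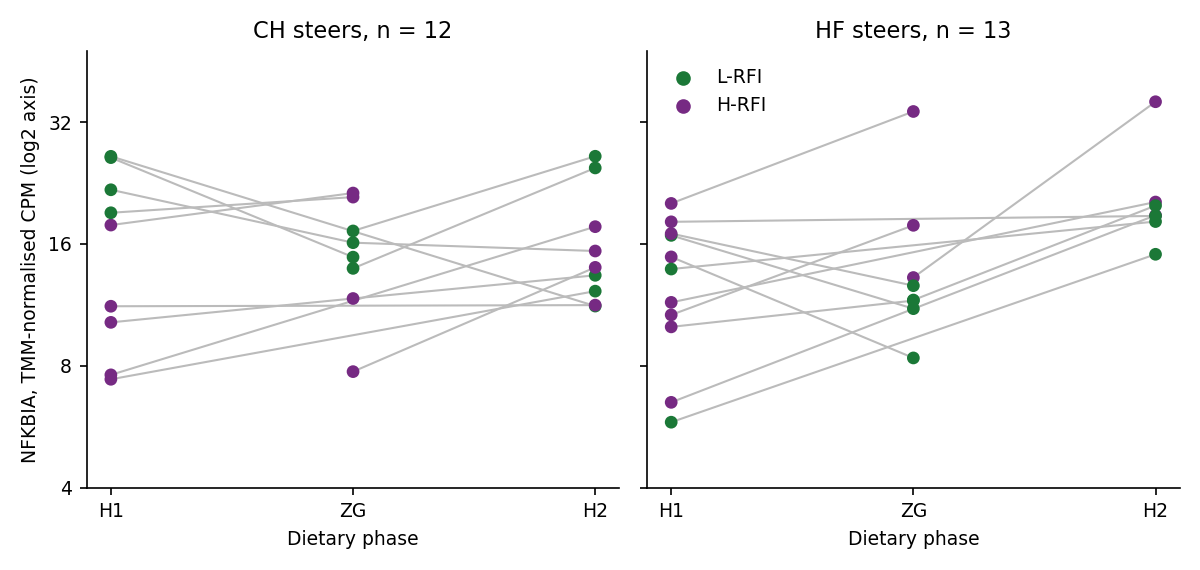
NFKBIA in TMM-normalised CPM (log2 vertical axis) for the steers with more than 1 retained library, by dietary phase; grey lines join the libraries of 1 steer and colour gives the RFI class in that phase. All 5 HF lines that run from H1 to H2 rise, from 5.81 to 18.1 CPM at the start to 15.1 to 20.3 CPM at the end.

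How far an animal's NFKBIA level carried over from phase to phase is described here without a test or an interval. The intraclass correlation of log2 levels within steers, after group means were removed, was 0.31 over the 52 libraries of 25 steers, both breeds pooled. Over all genes, repeated libraries of a CH steer were no more alike than those of different steers. The within-steer SD was 0.40 on the log2 scale, and the SD over all libraries around their group means was 0.55. The median absolute change between phases was 0.61 on the log2 scale, and 5 of 29 pairs changed by more than 2-fold. In all, 8 steers changed RFI class between phases. Comparing the same animal as L-RFI and as H-RFI, without CH-H1 libraries, the mean log2 difference was -0.12 over 6 steers (exact permutation p = 0.594), although 4 of the 6 were higher as L-RFI. Class changed together with phase in these pairs, so the effects of class and phase cannot be told apart. Steers 307, 1920, 2064, 2065 and 5635 were H-RFI first, and steer 1100 was L-RFI first. With a CH-H1 library the mean difference was 0.37 over 4 steers, which is described only. With plain CPM these means were -0.54 (3 of 6 higher, exact permutation p = 0.25) and 0.021 (2 of 4 higher).

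Within groups, NFKBIA varied most closely with ARRDC2 when all retained libraries were used. ARRDC2 belongs to the alpha-arrestins, adaptor proteins that guide ubiquitin ligases to membrane proteins. Over 104 libraries, the Pearson correlation of the 2 genes' distances from their group means was 0.52, the highest of 10290 genes and the only one above 0.5, against a median of 0.061. It was 0.55 in CH and 0.51 in HF, and 0.48 without the libraries of steers 1639 and 2069. Without the CH-H1 libraries, which chose NFKBIA, it was 0.476. There the unnamed ENSBTAG00000003267 stood at 0.479, so the first rank of ARRDC2 depended on those libraries. In 73 of the 104 libraries both genes lay on the same side of their group mean. These correlations share library depth and scaling, NFKBIA itself correlated with log10 depth at 0.27, and they are given as descriptions.

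**Figure D4:**
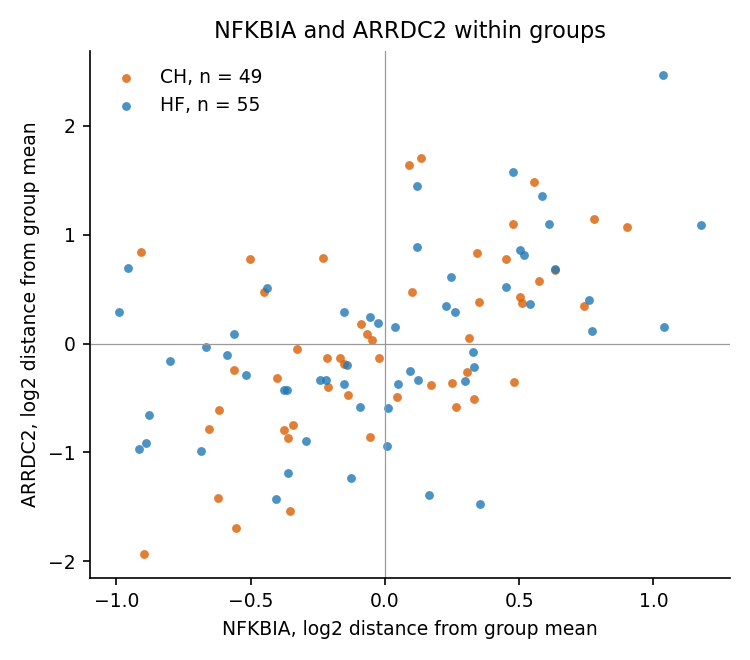
Log2 distance of each library from its group mean for NFKBIA (horizontal axis) and ARRDC2 (vertical axis), coloured by breed, for 49 CH and 55 HF libraries. The points rise together, with a Pearson correlation of 0.52.

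ARRDC2 also moved with phase in HF steers. In L-RFI steers its mean was 7.36 normalised CPM in H1, 18.4 in ZG and 15.4 in H2. In H-RFI steers it was 8.73, 17.9 and 31.3, and steer 1639 again stood highest in H2 at 112 CPM. It was called higher in ZG than in H1 (log2 change 1.18, edgeR adjusted p = 0.0401) and in H2 than in H1 (1.45, edgeR adjusted p = 0.000974). The H2 minus H1 change was 1.13 without the library of steer 1639 (edgeR adjusted p = 0.00467) and 1.08 with plain library totals (edgeR adjusted p = 0.0184). The ZG minus H1 change lost its call with plain library totals (1.01, edgeR adjusted p = 0.256). In CH-H1, ARRDC2 averaged 27.9 ± 20.1 CPM in L-RFI and 14.0 ± 9.40 in H-RFI steers (SD), a log2 difference of 0.98. That difference is described only, because these libraries chose NFKBIA and took part in the choice of ARRDC2.

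Other named genes followed at lower correlations. Among them were GADD45A, a growth arrest and stress gene (0.33), APOLD1 (0.28), KLF11, a Krüppel-like transcription factor (0.25), and PDK4, which restrains pyruvate oxidation (0.24). BDP1, TRMT13, METTL21C and the Notch target HES1 lay between 0.20 and 0.22. These are weak: GADD45A ranked 220, PDK4 1911 and HES1 3086 among the 10290 genes. Of the genes compared, 118 carried a name, so most could not be named. The unnamed ENSBTAG00000022160 and ENSBTAG00000003267 both reached 0.45. At the other end stood NR4A1 (-0.40), BTG2 (-0.39), CSRNP1 (-0.38), CCN2 (-0.37) and MIDN (-0.36), the first 3 of them immediate early genes, which cells switch on within minutes of a stimulus. Libraries with more NFKBIA for their group thus tended to have less of these transcripts.

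Few partners of NFKBIA in its own pathway could be named, because names came from the study's list of genes that differed between RFI classes in these libraries. Members found through that list were therefore picked on these samples and are not independent evidence of direction. No subunit of NF-kappaB, receptor or ubiquitin ligase component was among them, and NFKBIA was the only inhibitor of the 6 listed. Of the 9 kinases, MAP3K14, which starts the non-canonical branch of the pathway, was found. Of the 7 feedback regulators, ZC3H12A, a ribonuclease that destroys inflammatory transcripts, and ZFP36, which destabilises AU-rich transcripts, were found.

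In HF steers from H1 to H2, where NFKBIA rose, none of these genes was called higher. Of all genes, 3.82% were called higher and 5.97% lower, so a lack of higher calls among so few genes is near the general share. MAP3K14 fell (log2 change -0.77, edgeR adjusted p = 0.0287) and ZC3H12A fell (-0.59, edgeR adjusted p = 0.0815), while ZFP36 was at 0.21 and not called. The median of all genes was 0.0036. Between ZG and H2, both feedback regulators fell in HF (ZC3H12A -1.28, edgeR adjusted p = 0.00107; ZFP36 -0.80, edgeR adjusted p = 0.0427, and 0.0696 at -0.57, under the fold threshold, with the steer block in limma voom) and in CH (-1.09 and -1.23, edgeR adjusted p = 0.0343 and 0.000827), against an NFKBIA change of 0.32 and 0.19 that was not called. Of all genes, 2.84% in HF and 0.862% in CH were called lower. With plain library totals ZC3H12A lost its call in CH (-1.01, edgeR adjusted p = 0.277).

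Immediate early genes, which also came from the study's list, changed with phase in both breeds. In HF, 5 of the 13 that were found were called higher in ZG than in H1 and 0 lower (median log2 change 1.04), against 0.372% and 0.115% of all genes. With plain library totals that count of 5 fell to 1. In H2, 12 were called lower than in ZG (median -1.80), against 2.84% of all genes, and 7 lower than in H1 (median -0.85), against 5.97%. The last 7 were NR4A3 (-3.74), BTG2 (-1.80), NR4A2 (-1.65), CSRNP1 (-1.27), FOSL2 (-0.98), NR4A1 (-0.75) and JUN (-0.69). In CH, all 13 were called lower in H2 than in ZG (median -2.34), against 0.862% of all genes, and 12 with plain library totals. Of 4 genes found on the list of those that glucocorticoids induce, PDK4 (-1.55, edgeR adjusted p = 0.0455) and FOXO1 (-1.29, edgeR adjusted p = 0.0155) fell from H1 to H2 in HF, and none was called higher. Within groups the sum of these 4 genes correlated with NFKBIA at 0.24.

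Markers of other cells moved with the same contrast to differing degrees. All 3 adipocyte markers found, CIDEC (2.10), TRARG1 (1.91) and FABP4 (1.64), rose from H1 to H2 in HF, where 3.82% of all genes were called higher, and 2 of them kept the call with plain library totals. Their summed level was 1.71 to 24.4 CPM (median 9.38) in HF-H1 L-RFI and 2.56 to 135 CPM (median 7.88) in HF-H1 H-RFI steers, and 9.80 to 128 CPM (median 39.3) and 13.3 to 144 CPM (median 36.9) in the same classes of HF-H2. Within groups the adipocyte sum correlated with NFKBIA at -0.042 over 104 libraries. The breeds differed in sign: CIDEC, TRARG1 and FABP4 were at 0.057, 0.070 and 0.14 in HF and at -0.30, -0.15 and -0.18 in CH. Of 12 leukocyte and 10 plasma protein markers tested, 0 were called in that contrast, against 3.82% of all genes called higher and 5.97% lower. With the steer as a replicate block in limma voom, 3 leukocyte markers were called lower (median of the 12, -0.48). That fit called 2185 of 10478 genes in either direction. Within groups the leukocyte and plasma protein sums correlated with NFKBIA at 0.085 and -0.19. For the fibroblast sum the correlation was -0.28, for the only endothelial marker found -0.18 and for the muscle sum 0.16. The part of any of these cells in the NFKBIA change was not tested.

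**Figure D5:**
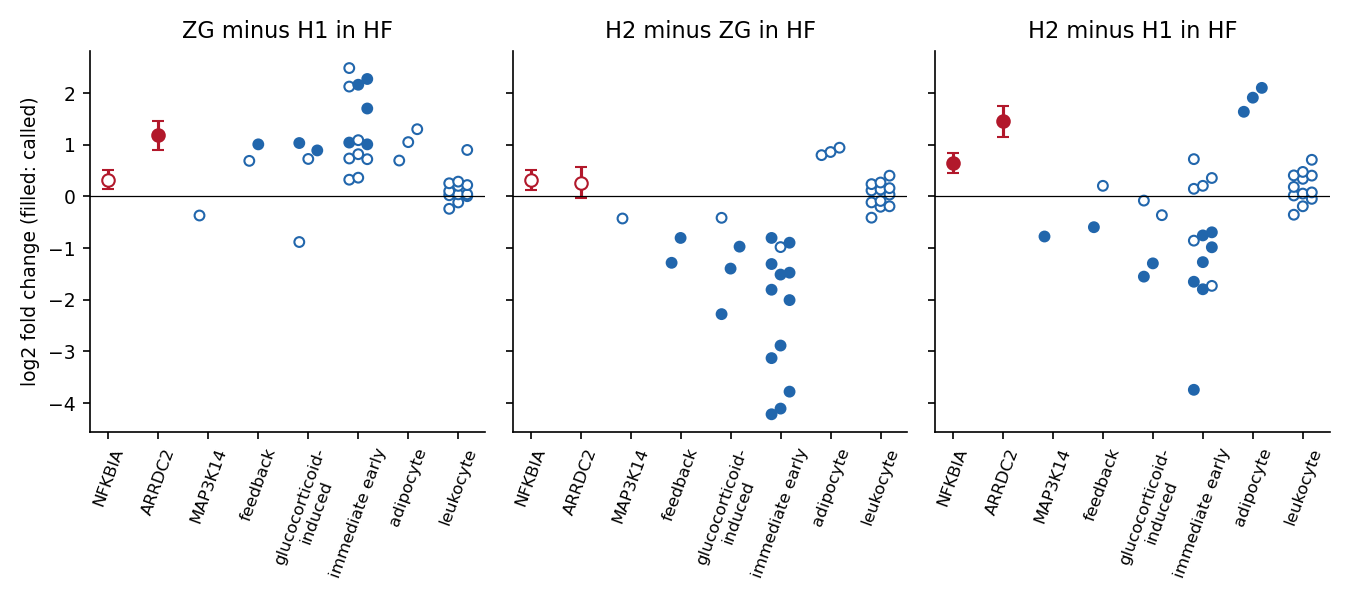
Log2 fold change (vertical axis) in HF steers for ZG minus H1, H2 minus ZG and H2 minus H1, for NFKBIA and ARRDC2 (red, with SE) and the named members of 6 gene lists (blue); filled symbols were called. NFKBIA stays between 0.32 and 0.64, while immediate early genes swing from a median of 1.04 to -1.80.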

How the data were processed

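The authors trimmed reads with cutadapt, aligned them with STAR and deposited raw counts per Ensembl gene for each library, unstranded and by strand. The paper names the genome build ARS-UCD1.2, whereas the submitters' processing notes name UMD3.1, so no coordinates are given. Reverse-strand counts of 104 libraries were used. Left out were 6 libraries under 1000000 gene counts and the ZG library of steer 571, in which the liver gene ALB was abundant. Retained libraries also held such transcripts: their plasma protein (hepatocyte) markers summed to 24.3 to 11235 normalised CPM (median 123). The highest sum was in an HF-ZG H-RFI library. Genes with at least 1 CPM in 50% of libraries were kept, TMM factors computed, and contrasts tested with edgeR 4.0.16 (quasi-likelihood, adjusted over all genes; SE from the F statistic). limma 3.58.1 and DESeq2 1.42.0 (R 4.3.3) served as alternatives. Scripts were tested on simulated data. Pairing comes from the steer number, which marks the same animal. The consensus correlation over all genes was 0.35 in HF but -0.12 in CH. Repeated libraries of a CH steer were thus no more alike than those of different steers. Changes within steers were tested by exact sign flips on log2 levels without an offset. An offset of 0.5 CPM entered only the likeness between genes and the marker sums. Likeness named the 10 most positive and 5 most negative genes with a symbol, and up to 2 without one each way; some of these and some list members are not reported here. Members of fixed lists were named when their adjusted p was under 0.1. The gene, lists and rules were chosen with earlier results of these data known. Each library is 1 steer in 1 phase, and within a phase p-values measure the spread between steers. Fits over several phases without the block treated libraries as independent, although 25 of the 77 steers gave more than 1. Their p-values therefore ignore the pairing. Intervals and limits of detection cover counting error only.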

Additional observations from a re-analysis of the deposited data

Results flagged for a closer look

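Dixon's criterion at 95% on unlogged CPM singled out the highest library in 2 of the 11 groups of up to 10 libraries. Its rate of about 1 in 20 groups by chance holds for normally distributed values, which was not tested here. The gap to the next library was 0.543 of the range in HF-H2 H-RFI, where 0.526 is critical. For HF-ZG H-RFI it was 0.468, barely above the critical 0.466. Levels on the log2 scale were not screened. In HF-H2 H-RFI, steer 1639 had 35.9 normalised CPM of NFKBIA (798 counts among 18563207), and the next had 22.2. In HF-ZG H-RFI, steer 2069 had 34.0 CPM (2373 counts among 49093603), and the next had 21.7. The same animals had 13.2 CPM in ZG and 20.2 CPM in H1, respectively. In these libraries ARRDC2 was also the highest of its group, at 112 CPM for steer 1639 (6.82 to 55.0 in the others) and 36 CPM for steer 2069 (8.56 to 21.5 in the others). The leukocyte sum of steer 2069 was 39.3 CPM, within the 13.2 to 174 CPM of its group. No cause of either value was tested.

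NFKBIA was also counted in libraries that entered no comparison. The CH-ZG H-RFI library of steer 571 had 40.1 plain CPM (95% Wilson interval 36.9 to 43.6; 554 counts), above the 4.41 to 26.4 plain CPM of the retained CH-ZG libraries. The HF-H1 L-RFI library of steer 2251 had 58.4 plain CPM from 6 counts (interval 26.8 to 127), whereas that of steer 871 (CH-H2 H-RFI) had 20.3 plain CPM from 12 counts (interval 11.6 to 35.4). In the other 4 left-out libraries, with 0 to 2 counts, the gene was at or under the limit that their depth allows.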

How the results depend on the processing

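Of 261 values under alternatives, 252 kept their direction and, where tested, their side of the threshold. The HF rise from H1 to H2 lost its call with every library included (0.58, adjusted p = 0.0518), with plain library totals (0.28) and without steer 1639 in H2 (0.54, range over libraries left out 0.54 to 0.70). With every library included and without steer 1639 its adjusted p stayed under 0.1, and the fold change fell below 1.5. It kept its call with DESeq2 (0.66, adjusted p = 0.00888), RLE factors (0.66), no filter (0.65), unstranded counts (0.65) and limma voom without and with the steer as replicate block (0.67 and 0.72). The block changed no call for NFKBIA, but 2185 genes were called with it against 1304 without. HF minus CH turned to 0.23 in ZG with plain library totals, and in H2 to 0.011 (DESeq2), 0.014 (RLE), 0.0085 (no filter) and 0.034 (every library included). The HF-H2 RFI difference ranged from -0.20 to 0.075 as each steer was left out. Plain totals moved the median of all genes by -0.34 (H2 minus H1) and -0.25 (H2 minus ZG) in HF and by 0.32 in HF minus CH in ZG, and the cause was not tested. The lowest count, 16, has a counting error of 25.0%, and the part of depth beyond counting error was not tested. DESeq2 gave no test of the difference among the 5 RFI comparisons. Groups of 7 to 11 left SEs of 0.23 to 0.28 for each RFI contrast other than CH-H1.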
